A study of Mus musculus with 6 samples.

Results

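The Cyp2c subfamily of the mouse is a set of closely related cytochrome P450 genes, and 8 of them are described here as RNA levels in the livers of mice given an adenovirus that overexpresses Chrna4 or vehicle. Members were taken by symbol from a list of 9 names (Cyp2c29, Cyp2c37, Cyp2c38, Cyp2c39, Cyp2c44, Cyp2c50, Cyp2c54, Cyp2c68 and Cyp2c70), of which 8 are among the 14492 genes of the deposited table. The name Cyp2c44 is not in the table; RefSeq gives it as a synonym of Cyp2c23, which is there and is described beside the members with the other Cyp2c genes Cyp2c40, Cyp2c55, Cyp2c67 and Cyp2c69. Members were thus chosen by name with measured values in play: no gene in the table has fewer than 10 reads over the 6 libraries, and the names were listed with the fold changes of these same livers known. The counts of members below therefore describe these 8 genes, and the number that changed is no evidence about the subfamily.

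All 6 animals were male C57BL/6J mice, 8 weeks old at the start and fed a high-fat diet (D12492) for 2 weeks from the day of a tail vein injection. The control group of 3 is labelled as injected with vehicle, and the treated group of 3 with an adenovirus that overexpresses Chrna4, a subunit of the nicotinic acetylcholine receptor. A protocol shared by both groups says that mice were injected with adenovirus, so whether the controls received a virus without Chrna4 is not stated, and an effect of the virus itself cannot be told apart from that of Chrna4. Each library is polyadenylated RNA of 1 liver, and the labels give each its own liver number.

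Cyp2c enzymes sit in the endoplasmic reticulum of hepatocytes, where they use haem and electrons from the reductase Por to oxidise drugs, steroids and fatty acids. Several are epoxygenases, which turn arachidonic acid into signalling lipids that the soluble epoxide hydrolase Ephx2 breaks down. The nuclear receptors CAR (gene Nr1i3) and PXR (gene Nr1i2) and the hepatocyte factor HNF4A are known regulators of Cyp2c genes. In mouse liver, RNA of several of them is known to be concentrated in the hepatocytes around the central vein.

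The starts of 4 members are shown, chosen by how their genes came out, and no cause of the falls is read from them. Cyp2c50 and Cyp2c37 have closely similar starts, and both genes fell. Cyp2c29 and Cyp2c38 have related starts, and Cyp2c29 fell while Cyp2c38 did not pass the test. Each is 300 bases of the gene's own strand, 250 before and 50 from the start site on, from RefSeq (GRCm38.p6). They lie at chr19:40089429-40089728 (plus strand), chr19:39992174-39992473 (plus), chr19:39286835-39287134 (plus) and chr19:39463026-39463325 (minus), in that order. The window of Cyp2c29 lies inside the interval given for that gene below (39269405 to 39330713), not at its first base. Capitals mark 4 motifs that were searched on both strands, and no marked match overlaps with another. The letters CAAAGTC are the core of a known type of site for the hepatocyte factor HNF4A. Nuclear receptors are known to bind elements that hold AGGTCA. Forkhead factors of the liver are known to bind sites that hold TGTTTAC. The last motif is TATAAA, the element that positions the start of transcription in many promoters.
Cyp2c50: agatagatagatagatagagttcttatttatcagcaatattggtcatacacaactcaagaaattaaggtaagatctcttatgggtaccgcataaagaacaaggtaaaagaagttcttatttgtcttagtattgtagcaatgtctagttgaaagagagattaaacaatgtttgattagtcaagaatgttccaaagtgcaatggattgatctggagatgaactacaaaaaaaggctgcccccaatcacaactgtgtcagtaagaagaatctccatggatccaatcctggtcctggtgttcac
Cyp2c37: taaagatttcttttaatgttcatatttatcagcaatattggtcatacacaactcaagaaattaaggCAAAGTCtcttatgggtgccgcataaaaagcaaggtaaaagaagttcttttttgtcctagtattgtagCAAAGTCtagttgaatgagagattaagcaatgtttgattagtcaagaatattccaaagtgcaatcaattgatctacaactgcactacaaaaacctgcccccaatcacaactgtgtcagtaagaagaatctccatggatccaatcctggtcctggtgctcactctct
Cyp2c29: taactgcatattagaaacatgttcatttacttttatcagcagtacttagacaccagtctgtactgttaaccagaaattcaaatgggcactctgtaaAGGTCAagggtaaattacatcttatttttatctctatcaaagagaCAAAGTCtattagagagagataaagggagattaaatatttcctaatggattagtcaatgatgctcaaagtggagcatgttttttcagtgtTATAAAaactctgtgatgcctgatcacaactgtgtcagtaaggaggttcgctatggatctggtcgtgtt
Cyp2c38: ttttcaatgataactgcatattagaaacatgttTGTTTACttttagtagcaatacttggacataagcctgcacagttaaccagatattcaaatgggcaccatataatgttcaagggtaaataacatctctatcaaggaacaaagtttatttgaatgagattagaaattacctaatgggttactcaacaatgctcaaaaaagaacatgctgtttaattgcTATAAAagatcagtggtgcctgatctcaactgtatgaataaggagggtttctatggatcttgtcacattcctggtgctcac
The starts of Cyp2c50 and Cyp2c37 aligned with 86.6% identical columns, and those of Cyp2c29 and Cyp2c38 with 70.8%. CAAAGTC was found in the windows of Cyp2c37 and Cyp2c29, and these letters are not in those of Cyp2c50 and Cyp2c38. The window of Cyp2c50 holds none of the 4 motifs.

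Levels are in CPM, the reads of a gene for every 1000000 of its library after the authors' scaling of the total. The deposited values correspond to 14959338 to 22440334 whole reads a library. Vehicle replicate 1 stood apart, with a Spearman correlation of 0.974 with vehicle replicate 3, against 0.990 between vehicle replicates 2 and 3 and at least 0.989 among the Chrna4-labelled libraries. Mouse Chrna4 itself did not differ beyond the spread, at 3.35 ± 1.65 CPM in vehicle and 3.23 ± 0.917 in the others (mean ± SD, n = 3 each; log2 fold change 0.0069, limma, adjusted p = 0.993), so directions below refer to the libraries labelled Chrna4 adenovirus (Chrna4-labelled). No source used here says whether reads of the vector's transcript would be counted for this gene. Of 12099 genes tested with limma, 24.5% passed an adjusted p of 0.05, 14.2% as higher and 10.3% as lower. With plain library totals the median over all genes moved to 0.30 on the log2 scale, from -0.0067 with the authors' scaling, so falls given here are relative to the bulk of genes.

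Of the 8 members, 4 fell in the Chrna4-labelled livers (Cyp2c50, Cyp2c54, Cyp2c37 and Cyp2c29) and 0 rose, beside 10.3% of all tested genes that fell and 14.2% that rose. The 4 were 2.90-fold to 5.48-fold lower, and the other 4 members (Cyp2c38, Cyp2c39, Cyp2c68 and Cyp2c70) did not pass the test. At an unadjusted p under 0.05, which 36.7% of all tested genes reached, the same 4 members were lower and 0 were higher. edgeR and DESeq2 on the recovered reads also called 4 lower and 0 higher. The groups did not overlap for these 4, all lower, and for Cyp2c39, which was higher without passing, against 43% of all tested genes without overlap (21% lower and 22% higher). Nothing is read from these shares, since the contrast is the one the names were listed from. Summed over the 8 members, the level was 1843, 2399.6 and 2224 CPM in vehicle and 967, 898 and 956 in the Chrna4-labelled ones. All 3 Chrna4-labelled sums were below every vehicle sum, with means of 2156 ± 284 and 940.3 ± 36.9 CPM (SD, n = 3 each), a 2.29-fold difference that was 1.82-fold as a share of all recovered reads. That share does not use the authors' scaling, but it depends on the reads of all other genes. It went from 0.193% ± 0.0325 to 0.106% ± 0.0047. In bulk liver, fewer hepatocytes and less of an RNA per hepatocyte cannot be told apart.

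**Figure D1:**
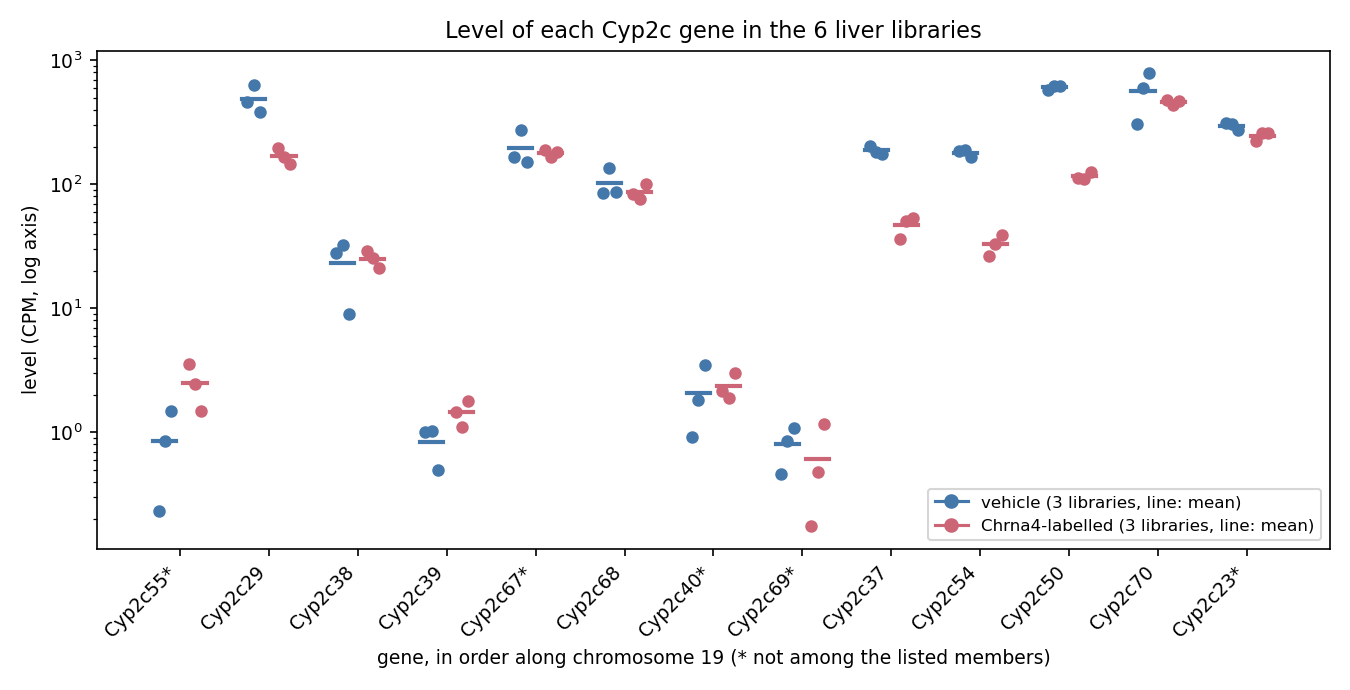
Level of each of the 13 Cyp2c genes in the table (CPM, log axis) in the 3 vehicle and 3 Chrna4-labelled libraries, ordered along chromosome 19; points are libraries and lines are group means. Cyp2c29, Cyp2c37, Cyp2c54 and Cyp2c50 are the genes whose groups lie clearly apart, with means of 492, 188, 181 and 605 CPM in vehicle against 169, 46.9, 33.0 and 117.

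The epoxygenase gene Cyp2c50 (ENSMUSG00000054827, chromosome 19, 40089688 to 40113950, plus strand in GRCm38) was at 574, 626 and 615 CPM in vehicle and at 113, 111 and 127 in the Chrna4-labelled ones. The 2 groups were far apart and each was tight. Its level was 5.16-fold lower (log2 fold change -2.36, standard error 0.093; limma, adjusted p = 3.20e-05). This was the lowest p of all 12099 tested genes, and 16 genes had a lower log2 fold change. The authors' deposited table gives Cyp2c50 a log2 fold change of -2.37.

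Its neighbour Cyp2c54 (ENSMUSG00000067225, 40037940 to 40073827, minus strand), whose enzyme also makes epoxides of arachidonic acid, was at 186, 191 and 165 CPM in vehicle. In the Chrna4-labelled libraries it was at 26.5, 33.2 and 39.2 CPM, below every vehicle value. The level was 5.48-fold lower (log2 fold change -2.43, standard error 0.14; limma, adjusted p = 0.000162), the largest fall among the members. Cyp2c37 (ENSMUSG00000042248, 39992424 to 40012243, plus strand), whose enzyme is known to make a hydroxylated product of arachidonic acid, was at 205, 183 and 175 CPM in vehicle. Its Chrna4-labelled values of 36.6, 51.1 and 53.1 CPM did not overlap with these, and its level was 3.998-fold lower (log2 fold change -1.99, standard error 0.15; limma, adjusted p = 0.000240).

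Cyp2c37, Cyp2c54 and Cyp2c50 lie next to each other on chromosome 19, with 25697 bases between Cyp2c37 and Cyp2c54 and 15861 between Cyp2c54 and Cyp2c50. They also resemble each other most among the members, with 95.1% to 96.1% identical coding bases between them. Reads of one can therefore be counted for another, and their sum does not depend on how such reads were split among them. The sum was at 964, 999 and 956 CPM in vehicle and at 177, 196 and 219 in the Chrna4-labelled libraries, 4.94-fold lower on the means. Cyp2c50 was 3.09, 3.28 and 3.72 times as high as Cyp2c54 in the vehicle libraries and 4.28, 3.35 and 3.23 times in the others, and the 2 groups of ratios overlapped. The ratio of Cyp2c50 to Cyp2c37 overlapped as well, at 2.80 to 3.51 in vehicle and 2.18 to 3.10 in the Chrna4-labelled libraries.

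**Figure D2:**
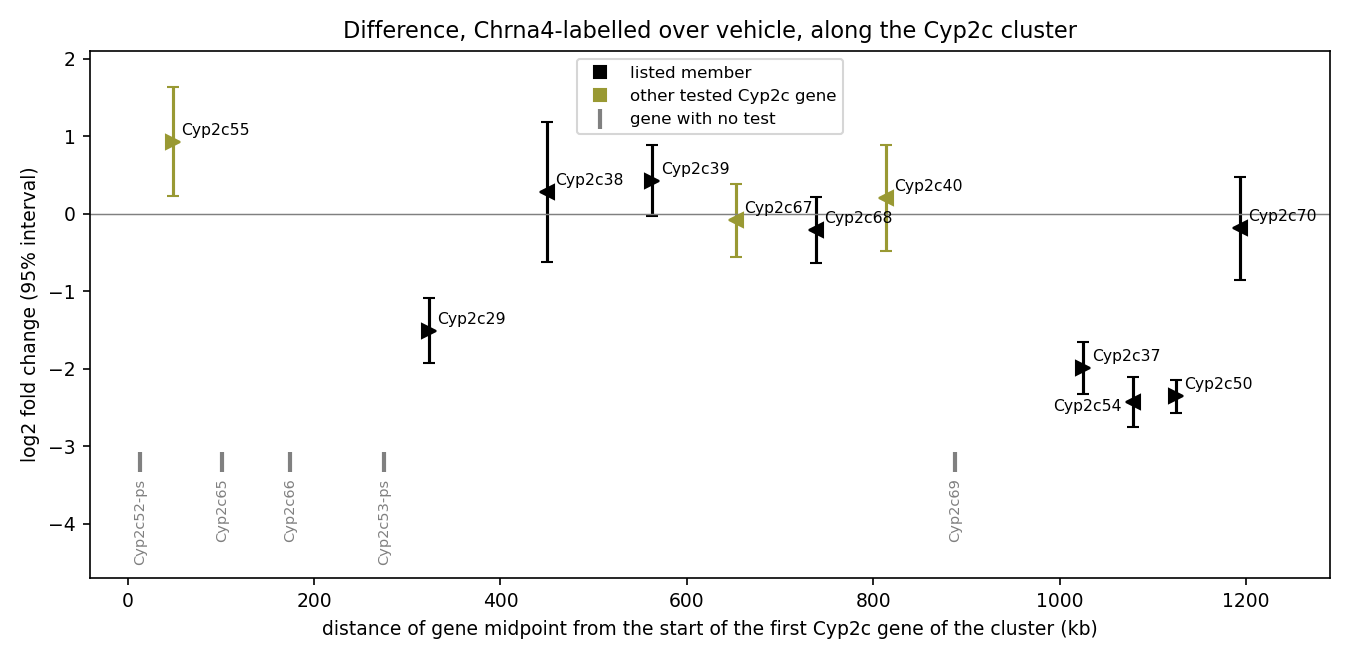
Log2 fold change (Chrna4-labelled over vehicle, limma, with its 95% interval) of each tested Cyp2c gene against the distance of its midpoint from the start of the first Cyp2c gene of the cluster (kb), with arrowheads pointing along the gene's strand; Cyp2c23, which lies apart on the same chromosome, is left out. The genes Cyp2c37, Cyp2c54 and Cyp2c50 sit together at -1.99 to -2.43, Cyp2c29 lies alone at -1.51, and the interval of Cyp2c70, the next gene after Cyp2c50, spans 0.

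Cyp2c70 (ENSMUSG00000060613, 40153353 to 40187333, minus strand) lies 39403 bases beyond Cyp2c50 and makes the muricholic acids, bile acids of mice. It was at 306, 603 and 785 CPM in vehicle and at 479.9, 432 and 469 in the Chrna4-labelled libraries. The vehicle values enclosed the others, and the difference of -0.19 on the log2 scale spanned -0.86 to 0.48 in its 95% interval (limma, adjusted p = 0.686). The low vehicle value is that of replicate 1, and without it the log2 fold change was -0.58 (limma, adjusted p = 0.00767). Its call thus rests on whether that library is used, and without vehicle replicate 1 the members that fell number 5. Cyp2c50 stood at 1.88, 1.04 and 0.784 times the level of Cyp2c70 in the vehicle libraries and at 0.236, 0.257 and 0.270 times in the Chrna4-labelled ones. These ratios did not overlap, and the scaling of the libraries does not enter them.

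The member with the next largest fall was Cyp2c29 (ENSMUSG00000003053, 39269405 to 39330713, plus strand), an epoxygenase gene that CAR activators are known to induce. It was at 459.8, 629 and 387 CPM in vehicle and at 196, 168 and 145 in the Chrna4-labelled libraries. The groups did not overlap, vehicle replicate 2 was the highest, and the level was 2.90-fold lower (log2 fold change -1.51, standard error 0.18; limma, adjusted p = 0.00137). Its fall was smaller than that of Cyp2c50 within libraries: Cyp2c29 stood at 0.628 to 1.005 times the level of Cyp2c50 in vehicle and at 1.14 to 1.73 times in the Chrna4-labelled libraries, without overlap.

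The nearest relatives of Cyp2c29 among the members are Cyp2c39 and Cyp2c38, with 89.5% and 89.1% identical coding bases. Cyp2c38 (ENSMUSG00000032808, 39389556 to 39463075, minus strand), another epoxygenase gene, was at 28.1, 32.4 and 9.09 CPM in vehicle and at 29.0, 25.5 and 21.04 in the Chrna4-labelled libraries. The groups overlapped, with vehicle replicate 3 the lowest of all, and the difference of 0.28 on the log2 scale spanned -0.62 to 1.18 in its 95% interval (limma, adjusted p = 0.658). Without that library the log2 fold change was -0.26, and the gene still did not pass (limma, adjusted p = 0.270). Cyp2c29 was 16.4, 19.4 and 42.6 times as high as Cyp2c38 in the vehicle libraries and 6.77, 6.58 and 6.88 times in the others. Cyp2c39 (ENSMUSG00000025003, 39510862 to 39568529, plus strand), whose enzyme is known to oxidise retinoic acid in mice, was barely detected. Its 1.003, 1.02 and 0.496 CPM in vehicle rest on 13, 19 and 10 reads, and its 1.47, 1.11 and 1.80 CPM in the Chrna4-labelled libraries on 25, 21 and 34. The values of the groups lay apart, but the difference did not pass (log2 fold change 0.42, 95% interval -0.036 to 0.88; limma, adjusted p = 0.167). Cyp2c39 reached the minimum mean of 1 CPM for testing through the Chrna4-labelled group, in which it is the higher.

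Cyp2c68 (ENSMUSG00000074882, 39688834 to 39741054, minus strand) was at 84.9, 135 and 87.0 CPM in vehicle and at 83.6, 75.9 and 99.99 in the Chrna4-labelled libraries. The groups overlapped, and the difference of -0.22 on the log2 scale spanned -0.64 to 0.21 in its 95% interval (limma, adjusted p = 0.447). Its coding bases are 97.1% identical to those of Cyp2c67, which was at 166, 276 and 150.5 CPM in vehicle and at 190.3, 166 and 183 in the others (log2 fold change -0.087, 95% interval -0.56 to 0.38; limma, adjusted p = 0.800). Both were highest in vehicle replicate 2, and Cyp2c68 stood at 0.489 to 0.578 times Cyp2c67 in vehicle and at 0.439 to 0.547 times in the Chrna4-labelled libraries. With the related Cyp2c40 and Cyp2c69 the sum was 303 ± 96.4 CPM in vehicle and 269 ± 22.4 in the Chrna4-labelled libraries (SD, n = 3 each), and the groups overlapped.

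Of the 5 Cyp2c genes outside the list, 4 could be tested and 0 passed with limma, 2 of them at an unadjusted p under 0.05, which 36.7% of all tested genes reached. Cyp2c23 (ENSMUSG00000025197, 44005022 to 44029208, minus strand), an epoxygenase gene that lies apart from the cluster on the same chromosome, was at 314, 304 and 273 CPM in vehicle and at 225, 258 and 259 in the Chrna4-labelled libraries. The values lay apart, by -0.26 on the log2 scale with a 95% interval of -0.49 to -0.030 (limma, adjusted p = 0.0982). With plain totals it was 0.072, so its direction depends on the scaling. Cyp2c55, a gene that CAR and PXR activators are known to induce, was at 0.860 ± 0.629 CPM in vehicle and 2.50 ± 1.05 in the Chrna4-labelled libraries (SD, n = 3 each), the second group being the one through which it could be tested. Its log2 fold change of 0.93 did not pass with limma (adjusted p = 0.0597) or edgeR (0.0771) and did with DESeq2 (0.0384). In the authors' deposited comparison its log2 fold change was 1.48, with an adjusted p under 0.05. Cyp2c40 was at 2.09 ± 1.32 and 2.37 ± 0.582 CPM, and Cyp2c69 at 0.804 ± 0.318 and 0.606 ± 0.507, below the minimum for testing.

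Levels can be set against each other per length of transcript, here as CPM per kb of each gene's principal transcript. In vehicle Cyp2c50 (334 ± 15.2), Cyp2c70 (329 ± 141) and Cyp2c29 (276 ± 69.6) came first and did not differ beyond their spread. Cyp2c23 followed at 155 ± 11.4, then Cyp2c67 (114 ± 39.6), which overlapped with it, Cyp2c37 (103 ± 8.31) and Cyp2c54 (101 ± 7.54), which overlapped with Cyp2c67, and Cyp2c68 at 59.3 ± 16.5. Cyp2c38 was at 8.08 ± 4.32, and the remaining 4 genes were at 1.16 or less. In the Chrna4-labelled libraries Cyp2c70 came first at 268 ± 14.5, ahead of Cyp2c23 (129 ± 10.1), Cyp2c67 (104 ± 7.33) and Cyp2c29 (95.1 ± 14.5), and Cyp2c50 came after these at 64.7 ± 4.61 (mean ± SD of CPM per kb, n = 3 each). The first place of Cyp2c50 in vehicle holds with the principal transcript only: per kb of all annotated exons Cyp2c70 was at 285 and Cyp2c50 at 207.

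The make-up of the summed level changed with these falls. Cyp2c29, Cyp2c37, Cyp2c50 and Cyp2c54 together held 77.2%, 67.9% and 60.4% of the 8 members' sum in vehicle replicates 1, 2 and 3. In the Chrna4-labelled libraries they held 38.6%, 40.4% and 38.05%, below every vehicle library. The share of Cyp2c50 went from 28.3% ± 2.58 to 12.5% ± 0.764, and that of Cyp2c70 from 25.7% ± 9.37 to 49.0% ± 0.754 (SD, n = 3 each). The share of Cyp2c68 went from 4.71% ± 0.863 to 9.19% ± 1.11 although its level did not pass the test, since the sum it is taken from was lower. These shares are of CPM and not of molecules, and they are descriptions with no test.

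**Figure D3:**
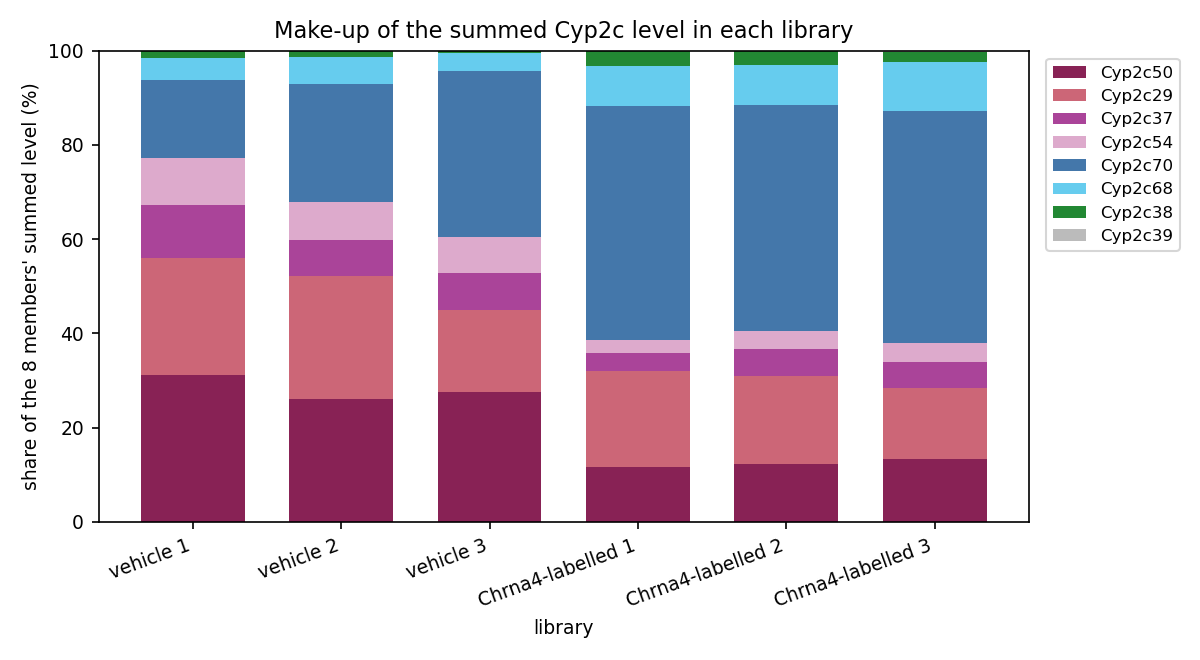
Share of each member in the summed level of the 8 members (%), 1 bar per library, with the 4 members that fell at the bottom of each bar. The 4 hold 60.4% to 77.2% of the sum in the vehicle libraries and 38.05% to 40.4% in the Chrna4-labelled libraries, where Cyp2c70 alone holds 48.2% to 49.6%.

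The replicates of the 2 groups were not equally close. Of the vehicle values of Cyp2c38 the highest was 3.57 times the lowest, against 1.38 times in the Chrna4-labelled group. For Cyp2c70 these ratios were 2.57 and 1.11. Cyp2c50 was close in both groups, at 1.09 and 1.14, whereas Cyp2c54 varied more in the Chrna4-labelled group, at 1.48 against 1.15. limma estimates a single spread per gene from both groups together.

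How far reads can be told apart differs between the members. For each principal transcript, windows of 150 bases, the length of a read, were compared with all annotated transcripts of other Cyp2c genes. Within 2 mismatches, 16.0% of the windows of Cyp2c50, 16.6% of Cyp2c37 and 7.45% of Cyp2c54 occurred in another Cyp2c gene. The share was 53.8% for Cyp2c68, 45.9% for Cyp2c67 and 68.0% for Cyp2c40. It was 0 for Cyp2c29, Cyp2c70 and Cyp2c23 and 0.12% or less for Cyp2c38 and Cyp2c39. Exact matches were fewer, at 8.83% of the windows of Cyp2c68 and 29.1% of Cyp2c40, with Cyp2c67 between them. They were 3.25% for Cyp2c50, 2.99% for Cyp2c54 and 0.299% for Cyp2c37. The values of Cyp2c68, Cyp2c67 and Cyp2c40 are therefore uncertain. These shares do not say by how much, since windows were compared singly and reads were pairs. No source used here says whether reads that match several genes were dropped. Cyp2c29 also overlaps the pseudogene Cyp2c53-ps in the annotation, and its own transcripts other than the principal one were not compared.

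**Figure D4:**
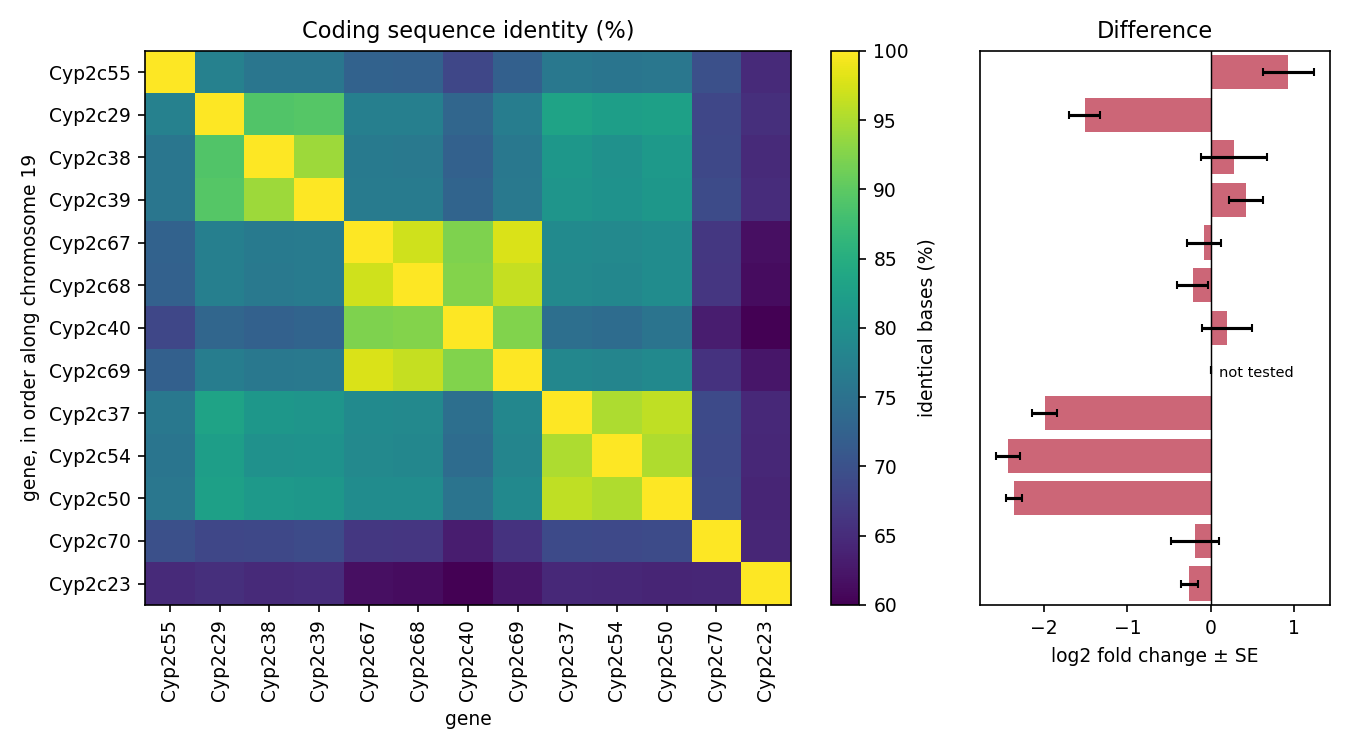
Identity of coding bases (%) between the 13 Cyp2c genes in the table, ordered along chromosome 19, and beside it the log2 fold change (Chrna4-labelled over vehicle) with its standard error from limma. Cyp2c37, Cyp2c54 and Cyp2c50 form a block above 95% that fell as a whole, while Cyp2c29 fell and its relatives Cyp2c38 and Cyp2c39, at 89.1% and 89.5%, did not pass the test.

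The promoter table holds 14 windows of 13 Cyp2c genes, and it has no entry for Cyp2c54 or Cyp2c23. CAAAGTC, on either strand, occurs in 11 of these 14 windows and in 4.44% of all 32851 promoter windows of the same length. Because Cyp2c promoters descend from common ancestors, the 14 windows are not independent. The 4 motifs were also chosen after these windows were seen. An excess over all promoters is therefore partly built in, and nothing is concluded from it. The 3 without it are Cyp2c50, Cyp2c38 and Cyp2c55, and the members with it include both Cyp2c29 and Cyp2c37, which fell, and Cyp2c39, Cyp2c68 and Cyp2c70, which did not pass the test. AGGTCA occurs in 3 of the 14 windows (16.3% of all promoters), among them those of Cyp2c29 and Cyp2c70. TGTTTAC occurs in 3 (3.65%), those of Cyp2c38 and the 2 starts listed for Cyp2c39. Of these 2 starts, that of the window 39347096 to 39347395 lies before the interval given above for Cyp2c39. TATAAA occurs in 10 (13.6%), and the windows of Cyp2c37, Cyp2c50 and Cyp2c68 and 1 of the 2 windows of Cyp2c39 lack these letters. Its first base lay -40 to -19 bases from the annotated start in Cyp2c67, Cyp2c38, Cyp2c55, Cyp2c70 and Cyp2c29. It lay at -162 in Cyp2c65, -150 in Cyp2c66, -3 in Cyp2c39, 10 in Cyp2c69 and 40 in Cyp2c40. The letters alone thus do not show a working element. Whether a motif marks the members that fell cannot be asked of these windows. That of Cyp2c50 holds none of the 4 motifs, and Cyp2c54 has no window.

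The regulators of Cyp2c genes moved unequally. Nr1i3, the gene of CAR, was at 94.9, 47.2 and 45.4 CPM in vehicle and at 13.2, 19.8 and 18.2 in the Chrna4-labelled libraries, and it fell (log2 fold change -1.75, standard error 0.27; limma, adjusted p = 0.00363). The groups did not overlap, and vehicle replicate 1 was the highest. Nr1i2, the gene of PXR, was at 128 ± 18.02 and 107 ± 9.12 CPM (SD, n = 3 each) and did not pass (limma, adjusted p = 0.181), but without vehicle replicate 1 it was lower (log2 fold change -0.36; adjusted p = 0.0285). Hnf4a, the gene of HNF4A, was at 972 ± 160.2 and 840.4 ± 27.9 CPM, and the groups overlapped (log2 fold change -0.20; limma, adjusted p = 0.345). It was lower without vehicle replicate 1 (-0.34; limma, adjusted p = 0.0255), and with plain totals its log2 fold change was 0.14. Of 29 tested transcription factors listed for P450 genes, 3 fell and 0 rose. Among all tested genes 10.3% fell and 14.2% rose, so the falls are near the general share. The count of falls was 1 to 8 without 1 library. It was 1 without Chrna4-labelled replicate 1 or 2, 8 without vehicle replicate 1 and 6 without vehicle replicate 3. The list's median of -0.20 became 0.13 with plain totals, with 1 lower and 4 higher. Of 26 tested target genes of CAR and PXR outside Cyp2c, 8 fell and 8 rose, among the latter the glutathione S-transferase genes Gstm3 (3.21) and Gsta1 (2.57), with a median of 0.097. With plain totals 4 fell and 12 rose, and without Chrna4-labelled replicate 2 the counts were 5 and 5. Gsta1 and Cyp3a16, both among the 8 that rose, could be tested through the Chrna4-labelled group alone.

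Genes that serve the enzymes moved in both directions, beside 10.3% of all tested genes that fell and 14.2% that rose. Cyb5a, the cytochrome that passes electrons to P450 enzymes, fell from 823 ± 146 to 408 ± 17.1 CPM (SD, n = 3 each; limma, log2 fold change -0.997, adjusted p = 0.00201). Por was at 707 ± 74.8 and 523 ± 71.2 CPM, and its call (limma, adjusted p = 0.0427) was lost without any 1 of the 6 libraries and with plain totals (log2 fold change -0.10). Of 7 tested electron supply genes 4 fell and 1, Cyb5r1, rose (0.81). The falls number 1 with plain totals and without vehicle replicate 2 or any Chrna4-labelled library. Ephx2, the hydrolase of the lipids that Cyp2c epoxygenases make, fell from 943 ± 58.0 to 648 ± 15.8 CPM (limma, adjusted p = 0.0062), a call lost with plain totals (log2 fold change -0.21), quantile normalization and scaling to hepatocyte markers. Ephx1, the microsomal epoxide hydrolase, was at 319 ± 17.04 and 383 ± 46.6 CPM and did not pass (limma, adjusted p = 0.141). Of 23 tested genes that handle arachidonic acid and its oxidised products, 9 fell and 4 rose. The counts were 3 and 6 with plain totals, 0 and 7 scaled to hepatocyte markers, and 4 and 3 without Chrna4-labelled replicate 2. The 4 that rose were named after their values were seen. They are the fatty acid hydroxylase genes Cyp4f16 (1.42) and Cyp4f18 (1.60), the phospholipase gene Pla2g4a (1.13) and the prostaglandin synthase gene Ptgs1 (0.86). Cyp4f18 could be tested through the Chrna4-labelled group alone. Of 12 genes of haem 3 fell, including Cpox (-0.69), and 1 rose, Hmox1 (1.04). The counts were 1 and 1 with plain totals or without Chrna4-labelled replicate 1 or 2, and 0 and 3 scaled to hepatocyte markers.

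Other P450 genes give the setting. The counts of this paragraph stand beside 10.3% of all tested genes that fell and 14.2% that rose. Of 46 tested Cyp genes outside Cyp2a, Cyp2b and Cyp2c, 20 fell and 5 rose, with a median log2 fold change of -0.41, against -0.86 over the 8 members, -0.20 over all 12 tested Cyp2c genes and -0.0067 over all tested genes. With plain totals 14 of the 46 fell and 9 rose (median -0.081), and scaled to hepatocyte markers 10 fell and 11 rose (median 0.019), so the lean to falls depends on the scaling. The risers numbered 2 without Chrna4-labelled replicate 1 and 8 without vehicle replicate 2. The median over the members lies between the 4 that fell and the rest, and it is no level of any of them. Of 6 tested Cyp2a and Cyp2b genes 1 fell, Cyp2a12 (-0.64), and 1 rose, Cyp2a4, from 0.529 ± 0.134 to 30.8 ± 10.8 CPM (SD, n = 3 each), which could be tested through the Chrna4-labelled group alone. Risers numbered 3 with plain totals, with scaling to hepatocyte markers and without vehicle replicate 1, and the call of Cyp2a12 was lost with quantile normalization and with scaling to hepatocyte markers (limma, adjusted p = 0.0988 and 0.159). Of 14 tested bile acid synthesis genes, the pathway of Cyp2c70, 10 fell and 0 rose, with a median of -0.66. The counts were 6 and 1 with plain totals and 5 and 3 scaled to hepatocyte markers. Pericentral genes outside Cyp2c fell in 14 of 21, with a median of -0.94, and 0 rose; with plain totals 12 fell. Periportal genes fell in 1 of 16 and rose in 4, with a median of -0.15 that became 0.18 with plain totals, and 2 rose without any 1 Chrna4-labelled library.

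Genes of other cell types moved in the same libraries, and their part in the results was not tested. For comparison, 10.3% of all tested genes fell and 14.2% rose. The summed level of 14 measured hepatocyte markers was 112978 to 119970 CPM in vehicle and 89976 to 99454 in the Chrna4-labelled libraries. As a share of all recovered reads it was 9.64% to 10.8% and 10.2% to 11.03%, so the groups lie apart with the authors' scaling and overlap without it. Of the 14, 5 fell and 0 rose, against 3 and 0 with plain totals or without Chrna4-labelled replicate 1 or 2, and 1 and 3 with quantile normalization. Scaled to the geometric mean of these markers, the 4 members still fell, by 1.93 (Cyp2c50), 2.01 (Cyp2c54), 1.56 (Cyp2c37) and 1.08 (Cyp2c29) on the log2 scale (limma, 4 members lower). The sum of 18 macrophage markers was 505 to 1207 CPM in vehicle, with the lowest value in replicate 1, and 1705 to 1804 in the Chrna4-labelled libraries, and 11 of the 18 rose and 2 fell. Risers numbered 7, 5 and 6 without Chrna4-labelled replicates 1, 2 and 3, and 5 markers fell without vehicle replicate 1. That of 14 stellate cell and matrix markers was 230 to 256 and 654 to 715, and that of 16 T and NK cell markers 10.7 to 34.0 and 64.2 to 81.0 CPM, with 9 of 13 and 10 of 14 tested markers higher. Of these risers 1 and 4 could be tested through the Chrna4-labelled group alone, so the counts are partly set by the filter, and those of T and NK cells numbered 5 or 6 without 1 Chrna4-labelled library. Markers of monocytes, dendritic cells and neutrophils (13 measured) summed to 18.5 to 22.4 and 63.2 to 69.2, and those of B and plasma cells (8) to 9.95 to 16.8 and 38.1 to 53.6 CPM, with 7 of 9 and 4 of 7 tested markers higher, 1 of the last 4 through the filter in the same way. Sums for endothelial (13), bile duct (7), adipocyte (2) and pancreas and gut (4) markers overlapped between the groups, but as shares of reads those of adipocytes did not (0.00123% to 0.00246% and 0.00271% to 0.00288%).

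Outside Cyp2c, the genes whose pattern was most like that of the summed members over the 6 libraries were Dio1, Ugt2a3 and Slco1b2. Likeness was the root mean square difference of log2(CPM + 1) after each profile was centred on its own mean, over 6041 genes at or above the median level of 20.3 CPM, and it was 0.066, 0.099 and 0.10 for these genes against a median of 0.58. Dio1, which activates thyroid hormone, was at 237, 273 and 272 CPM in vehicle and at 116, 114 and 109.5 in the Chrna4-labelled libraries. Ugt2a3 encodes a glucuronosyltransferase and Slco1b2 an uptake transporter.

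**Figure D5:**
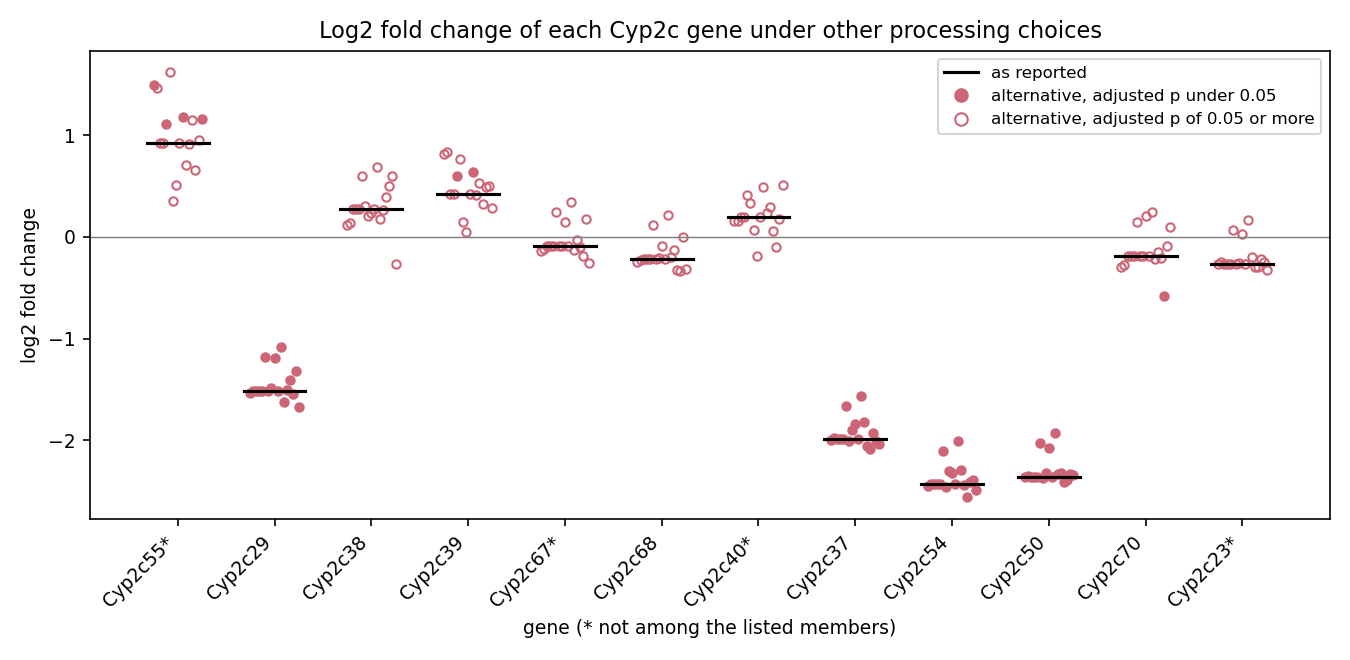
Log2 fold change (Chrna4-labelled over vehicle) of each tested Cyp2c gene as reported (line) and under up to 17 other processing choices (points, filled where the adjusted p was under 0.05). All points of Cyp2c29, Cyp2c37, Cyp2c50 and Cyp2c54 are filled and below -1.0, and the points of Cyp2c38, Cyp2c67, Cyp2c68, Cyp2c40, Cyp2c70 and Cyp2c23 lie on both sides of 0.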

How the data were processed

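Polyadenylated RNA of 6 mouse livers was read as 150 bp pairs, per the labels' protocols. The submitters' processing notes name TopHat2, HTSeq, mm10 and GRCm38 with no version or role. No source used here gives the annotation, the strand setting or the handling of reads that match several genes. Per the file headers, the deposited table holds a signal for each library and, from a comparison the authors made, a log2 fold change, a log2 abundance, a p-value and its adjusted form. Divided by what 1 read is worth in its library, 100% of the deposited values were whole within 0.01, so reads were recovered, and the signal is CPM on library totals scaled by 0.853 to 0.922 (vehicle) and 1.11 to 1.14 (Chrna4-labelled), as TMM gives from these reads.

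Groups were compared in R 4.3.3 with limma 3.58.1 (eBayes, trend on) on log2(CPM + 1) of the 12099 genes that averaged 1 CPM or more, adjusted by Benjamini-Hochberg over all of them, at 0.05; fold changes on this scale understate those of low genes. Of the members, 8 of 8 were tested. With 4 residual degrees of freedom a gene, limma draws each gene's spread between these livers towards a trend over all genes. Its p-values set the group difference against that moderated spread, and the labels give nothing but liver numbers. edgeR 4.0.16 (quasi-likelihood) and DESeq2 1.42.0 on recovered reads, 3 other scalings, 2 pseudocounts, 2 filters, limma without the trend, a replicate block and leaving out each library were alternatives. On simulated data this fit was tested first. Replicates differed by far more than sampling noise (chi-square per degree of freedom 10.3 to 65.7), so each counts as 1 sample. Positions and transcripts are of GENCODE M21 (GRCm38), which holds 14480 of the 14492 gene numbers; promoters are RefSeq's.

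Members and gene lists were chosen with earlier results of these data known, and motifs after the promoters were seen. Named by rule were all Cyp2c genes, Por, Nr1i2, Nr1i3, Ephx1 and Ephx2, the 2 genes with the lowest p past the threshold of every other list (not all are printed), and the 3 genes most like the summed members; Hnf4a and the other genes of short counts were named after their values were seen.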

Additional observations from a re-analysis of the deposited data

How the results depend on the processing

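The falls of Cyp2c50, Cyp2c54, Cyp2c37 and Cyp2c29 passed the threshold under all 17 alternatives, with log2 fold changes of -2.42 to -1.93, -2.56 to -2.01, -2.09 to -1.56 and -1.67 to -1.08. The count of members lower was 4 or, without vehicle replicate 1, 5; the count of members higher was 1 (Cyp2c39) with plain library totals and with scaling to hepatocyte markers. Genes changed among all tested numbered 4882 with plain totals, 6423 with hepatocyte scaling and 1397 to 3359 without 1 library, against 2962; with plain totals 93.0% of them were higher, against 58.1%. The summed level's log2 ratio of -1.20 was -0.87 with plain totals and -0.76 with hepatocyte scaling. Genes that did not pass changed direction with some scalings. With plain totals the log2 fold change was 0.072 for Cyp2c23, 0.12 for Cyp2c68, 0.14 for Cyp2c70, 0.25 for Cyp2c67, 0.083 for Nr1i2 and 0.14 for Hnf4a. Scaled to hepatocyte markers these were 0.17, 0.21, 0.24, 0.35, 0.18 and 0.24. Quantile normalization gave 0.032 for Cyp2c23, 0.20 for Cyp2c70, 0.15 for Cyp2c67, -0.19 for Cyp2c40 and 0.26 for Hnf4a. Without 1 library, Cyp2c70 ranged from -0.58 (vehicle replicate 1, now passing) to 0.10 (vehicle replicate 3), Cyp2c40 from -0.10 to 0.52, Cyp2c38 from -0.26 to 0.60 and Cyp2c67 from -0.26 to 0.18. The cause was not tested. Same-numbered libraries did not deviate together (correlations of -0.065, -0.018 and 0.021, against -0.067 to 0.075 for differently numbered ones). No pairing by number was seen, which does not show that none existed. With a replicate block 2418 genes changed, and the same 4 members fell. Cyp2c55 passed with plain totals (1.11), hepatocyte scaling (1.18), DESeq2 (1.499) and without vehicle replicate 3 (1.166). Checks of genes outside Cyp2c and of the lists under these alternatives were added after the data were seen. At 10 to 34 reads a library, a small change of Cyp2c39 could be missed, and whether it passed depended on the scaling.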

Other observations

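Sex-biased liver genes outside Cyp2c moved beside the members, all of these livers being male. The counts below stand beside 10.3% of all tested genes that fell and 14.2% that rose. Of 20 tested male-biased genes 13 fell and 0 rose, with a median log2 fold change of -0.88, among them the steroid dehydrogenase gene Hsd3b5, from 258 ± 11.5 to 52.9 ± 8.27 CPM (SD, n = 3 each; limma, adjusted p = 0.000111). The count of falls was 9 to 16 without 1 library and 10 with plain totals. Of 9 tested female-biased genes 4 rose and 0 fell, and 2 of these risers, Cyp2a4 and Cyp3a16, could be tested through the Chrna4-labelled group alone. Risers numbered 7 with plain totals, 1, 2 and 2 without Chrna4-labelled replicates 1, 2 and 3, and 3 with 1 lower without vehicle replicate 3. Of 24 acute phase genes, whose rise marks inflammation of the liver, 4 rose, including Lcn2 (1.90), and 2 fell, including Crp (-0.62). Both counts are near the shares of all tested genes, and nothing is read from them. The call of Crp was lost with plain totals (-0.29). With plain totals 13 rose and 0 fell. Risers numbered 1 without Chrna4-labelled replicate 1 or 2, and without vehicle replicate 1 6 rose and 3 fell.

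Retinoid genes, the pathway of Cyp2c39, went both ways, with 5 of 19 lower and 3 higher (median -0.14). Over all tested genes the shares were 10.3% lower and 14.2% higher. For the retinoid genes the counts were 5 and 6 with plain totals (median 0.17) and 3 and 7 scaled to hepatocyte markers. Cyp26b1, which breaks down retinoic acid, fell from 17.8 ± 2.27 to 3.65 ± 0.934 CPM (SD, n = 3 each; limma, adjusted p = 0.000396), while the level of Cyp2c39 stayed under 2 CPM in every library.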
